A study of Drosophila melanogaster with 24 samples.

Results

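The cytosolic ribosomal protein genes of Drosophila melanogaster were taken as the rows of the gene table whose symbol is RpL, RpS or RpLP followed by a digit. The rule found 92 genes of 17768 in the table. By symbol, 50 were RpL (named for the large subunit), 38 RpS (the small subunit) and 4 RpLP (the stalk of the large subunit). RpL7-like, RpL24-like and RpLP0-like, which resemble assembly factors, are among them. RNA came from whole male flies aged 1 to 7 days of a yw background, kept at 25 °C. The flies were wild type (+/+), heterozygous (+/Reldel) or homozygous (Reldel/Reldel) for a deletion of Rel, which encodes the NF-kappaB factor Relish. They were uninjured or sampled 4 h after traumatic brain injury, with 4 libraries in each of the 6 groups. Whether the 4 libraries came from separate vials or cultures is not stated, and the p-values cover only the variation among them, which may be technical.

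The cytosolic ribosome reads messenger RNA and joins amino acids into protein. Its small subunit decodes the message, its large subunit forms the peptide bond, and the acidic stalk recruits translation factors. Ribosomal protein genes are transcribed strongly and largely together in most cells, and in flies the loss of a single copy of many of them gives the slow-developing Minute phenotype. Some of these genes have a second copy in the fly genome, and several of the second copies are known for expression in the germ line. All RNA here comes from whole bodies, so fewer cells of a type and less RNA per cell cannot be told apart.

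The libraries held 6543632 to 14660491 counts, and all 92 genes were among the 13868 tested. Rel itself had 273 to 1989 counts in every wild-type and heterozygous library, and 0 or 1 in every homozygous library. Homozygous injured library 1 stood apart. Its genes spread around the mean of the other 3 libraries of its group with a median absolute deviation of 0.66 on the log2 scale, against 0.20 to 0.40 for the other 23 libraries. In that library 24 of the 92 ribosomal protein genes lay more than 2-fold below its group and 0 more than 2-fold above. Wild-type injured library 4 held 464 CPM (read counts scaled to a common library size) summed over 24 ovary and yolk genes, with 2 of the 24 at 0, against 38.3 to 63.1 CPM and 6 to 12 genes at 0 in the others. Results are therefore given with and without these libraries.

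After brain injury, transcripts of most cytosolic ribosomal proteins were higher, with the middle 50% of the genes at log2 fold changes from 0.20 to 0.45. Averaged over the 3 genotypes, 55 of the 92 genes (59.8%) rose, 0 fell and 37 did not pass edgeR's quasi-likelihood test at an adjusted p under 0.05. Among all 13868 genes, 18.3% were called in this comparison and 11.6% were called higher. The median log2 fold change of the 92 genes was 0.37, beside -0.01 for all genes. Without homozygous injured library 1 the count was 72 of 92, beside 21.6% of all genes. Without that library and wild-type injured library 4 it was 68, beside 20.4%. It was 45 without wild-type injured library 4 alone, beside 16.8% of all genes. It was 36 without uninjured wild-type library 4, the lowest count when any 1 library was left out. Of the 55 genes, 35 passed in all 24 fits that dropped a library.

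The shift was also visible in the summed counts. Ribosomal protein genes took 2.28% ± 0.28 (SD, n = 4) of all counts in uninjured and 2.75% ± 0.22 in injured wild type. Heterozygotes had 2.43% ± 0.36 and 2.95% ± 0.40. Homozygotes had 2.27% ± 0.28 and 2.58% ± 0.51, and injured homozygotes had 2.81% ± 0.22 (n = 3) without library 1. The 12 uninjured libraries ran from 1.87% to 2.86% with a median of 2.37%, and the 12 injured ones from 1.87% to 3.46% with a median of 2.78%. The ranges of the 2 states overlapped. With homozygous injured library 1 left out, the lowest injured library was at 2.48%, above 7 of the 12 uninjured libraries, and all 11 injured libraries lay above the uninjured median.

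**Figure D1:**
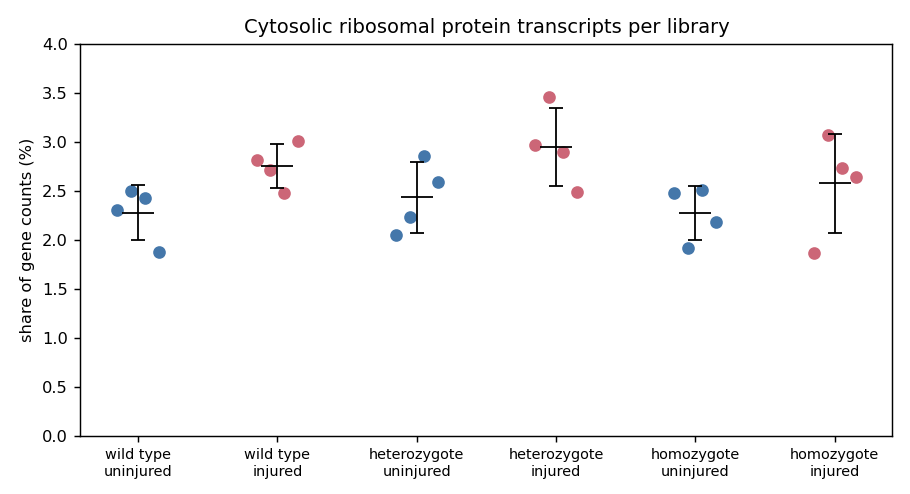
Share of all counts that fell on the 92 ribosomal protein genes, in percent, for each of 24 libraries (points) with the mean ± SD of each group of 4. The injured means of 2.75%, 2.95% and 2.58% lie above the uninjured means of 2.28%, 2.43% and 2.27%, and the lowest injured library, at 1.87%, is homozygous library 1.

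Within a single genotype, 1 gene of the 92 passed the test, and it was the same gene each time, RpLP0-like. This 1.09% of members stands beside 3.35% of all genes called higher in wild type, 3.24% in heterozygotes and 4.71% in homozygotes, with 3.79%, 4.74% and 5.86% called in either direction. The direction was nevertheless shared: the log2 fold change was above 0 for 84 of 92 genes in wild type, 83 in heterozygotes and 77 in homozygotes, beside 48.1%, 48.7% and 49.0% of all genes. Median log2 fold changes of the 92 were 0.35, 0.43 and 0.25. At an unadjusted p under 0.05 there were 27, 52 and 11 genes, of which 2 in homozygotes were lower, beside 14.1%, 18.9% and 22.4% of all genes. With all libraries the homozygous count was thus a smaller share of the 92 than of all genes. Without homozygous injured library 1 this unadjusted count was 33 in homozygotes and 47 in wild type. In wild type it was 7 without wild-type injured library 4 and 18 without both. The shares of all genes at an unadjusted p under 0.05 are not given for these fits. The 4 injured libraries lay wholly above the 4 uninjured ones for 40 genes in wild type (43.5%, beside 8.5% of all genes). The same held for 3 genes in heterozygotes (3.26%, beside 5.05%) and 10 in homozygotes (10.9%, beside 7.37%).

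The single-genotype counts of called genes rested on few libraries. Without uninjured wild-type library 4 the wild-type count was 0. In heterozygotes it was 35 without uninjured library 3, whose ribosomal protein genes had a median 0.54 (log2) above the rest of its group. It was 3 without injured library 4 and 0 without any one of uninjured libraries 1 and 2 and injured libraries 2 and 3. In homozygotes it was 7 without injured library 4, and 0 without any one of uninjured libraries 1 and 4 and injured libraries 2 and 3. The shares of all genes called in these fits are not given here. Whether the members changed more than all genes did therefore cannot be told. Without homozygous injured library 1 the homozygous count of called genes stayed at 1, beside 4.49% of all genes. The median log2 fold change of the 92 genes moved from 0.25 to 0.37 and 88 of 92 were above 0. The authors' deposited table for injury in wild type listed 24 of the 92 genes higher and 0 lower at an adjusted p under 0.05, beside 6.69% of its genes in either direction. Their deposited tables listed 2 in heterozygotes and 0 in homozygotes, beside 4.38% and 4.21% of all genes in those tables.

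**Figure D2:**
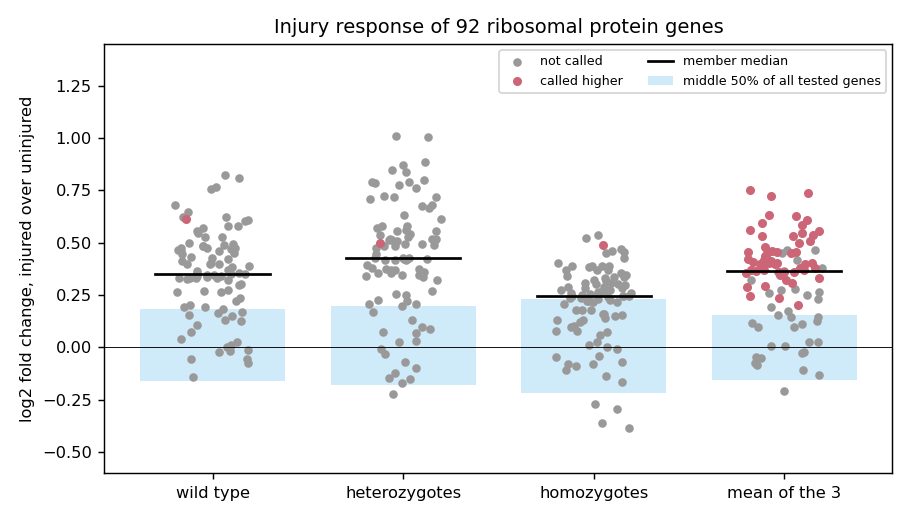
Injury response (log2 fold change, injured over uninjured) of each of the 92 genes in the 3 genotypes and for their mean, with the member median as a line and the middle 50% of all 13868 tested genes as a band. Red marks the called genes, 1 in each genotype and 55 for the mean, and the member medians of 0.35, 0.43, 0.25 and 0.37 lie above the band.

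RpLP0-like had the smallest adjusted p of the 92 genes. It is the fly relative of yeast Mrt4, a nuclear factor that holds the place of the stalk protein P0 on the maturing large subunit. In uninjured wild type it had 18.5, 15.7, 14.04 and 11.6 CPM in libraries 1 to 4, and in injured wild type 22.4, 23.4, 22.4 and 22.7 CPM. In heterozygotes the values were 16.04, 14.8, 13.1 and 17.8 CPM uninjured and 24.6, 21.98, 22.5 and 18.1 CPM injured. In homozygotes they were 13.0, 17.0, 13.4 and 14.71 CPM uninjured and 17.98, 23.5, 20.5 and 19.5 CPM injured. The states did not overlap within any genotype, and 10 of the 12 injured libraries lay above the highest uninjured one. The log2 fold change was 0.53 ± 0.08 (SE) averaged over genotypes (adjusted p = 2.97e-05, edgeR), with 0.61 ± 0.14 in wild type (adjusted p = 0.00951), 0.50 ± 0.14 in heterozygotes (0.0342) and 0.49 ± 0.14 in homozygotes (0.0368). Its exons overlap those of Jra, the fly Jun gene, on the other strand of chromosome arm 2R, and the sources used here do not say that strand was used in counting. Jra rose by a log2 fold change of 0.54 ± 0.07 (adjusted p = 1.89e-06), and what reads shared with Jra add to RpLP0-like was not tested.

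The other genes that resemble assembly factors also rose. RpL24-like is related to yeast Rlp24 and RpL7-like to yeast Rlp7, which both act on the large subunit before it leaves the nucleus. RpL24-like had an averaged log2 fold change of 0.36 ± 0.12 (adjusted p = 0.0383) and RpL7-like of 0.20 ± 0.06 (0.0139). The adjusted p of RpL24-like reached 0.0853 when single libraries were left out. These 3 genes are not subunits of the finished ribosome, and without them 52 of 89 genes were called in the averaged comparison. Within single genotypes, with all libraries fitted, no gene outside these 3 was called by edgeR.

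Large subunit genes had the largest fold changes. RpL35A lies at 3R:5465630-5467101 (dm6, minus strand), RpL8 at 3L:2587456-2588883 (plus strand) and RpL13A at 3R:5624474-5625947 (plus strand). RpL35A rose by 0.75 ± 0.21 on the log2 scale (adjusted p = 0.0151), RpL8 by 0.74 ± 0.20 (0.0124) and RpL13A by 0.72 ± 0.17 (0.00415). RpL35A had 30.4, 48.2, 35.0 and 25.4 CPM in uninjured and 74.1, 54.8, 43.5 and 74.0 CPM in injured wild type. In heterozygotes it had 21.6, 35.8, 80.8 and 41.2 CPM and, after injury, 72.5, 154, 69.9 and 62.8 CPM. In homozygotes it had 54.9, 28.7, 57.9 and 35.3 CPM and, after injury, 26.2, 74.4, 74.0 and 62.6 CPM. Injured heterozygous library 2 was the highest of all 24 and injured homozygous library 1 among the lowest, so the spread within these groups was wide and the states overlapped in all 3 genotypes. RpL6, with 0.35 ± 0.08 (0.00282), and RpL11, with 0.38 ± 0.11 (0.0229), changed less but varied less between libraries. For RpL11 the edgeR adjusted p reached 0.0539 when single libraries were left out.

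All 3 stalk proteins of the finished ribosome rose: RpLP0 by 0.40 ± 0.12 (adjusted p = 0.0198), RpLP1 by 0.42 ± 0.11 (0.0105) and RpLP2 by 0.51 ± 0.13 (0.00902). RpS6, the classical substrate of S6 kinase downstream of TOR, rose by 0.45 ± 0.14 (0.0282). RpL32, formerly rp49 and much used as a reference gene for quantitative PCR in flies, rose by 0.29 ± 0.10 (0.0389), from a median of 311 CPM (231 to 369) in the 12 uninjured libraries to 366 CPM (291 to 457) in the 12 injured ones. For RpL32, 10 of the 12 injured libraries lay above the uninjured median. When single libraries were left out, the edgeR adjusted p reached 0.0926 for RpL32 and 0.0636 for RpS6. RpS27A and RpL40, each made as a fusion with ubiquitin, had log2 fold changes of 0.11 ± 0.06 (0.167) and 0.14 ± 0.09 (0.262) and did not pass, while without homozygous injured library 1 RpL40 passed with 0.20 ± 0.07 (0.0417). RpL5, which binds the ribosomal 5S RNA together with RpL11, had -0.03 ± 0.07 (0.822) and did not pass either.

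**Figure D3:**
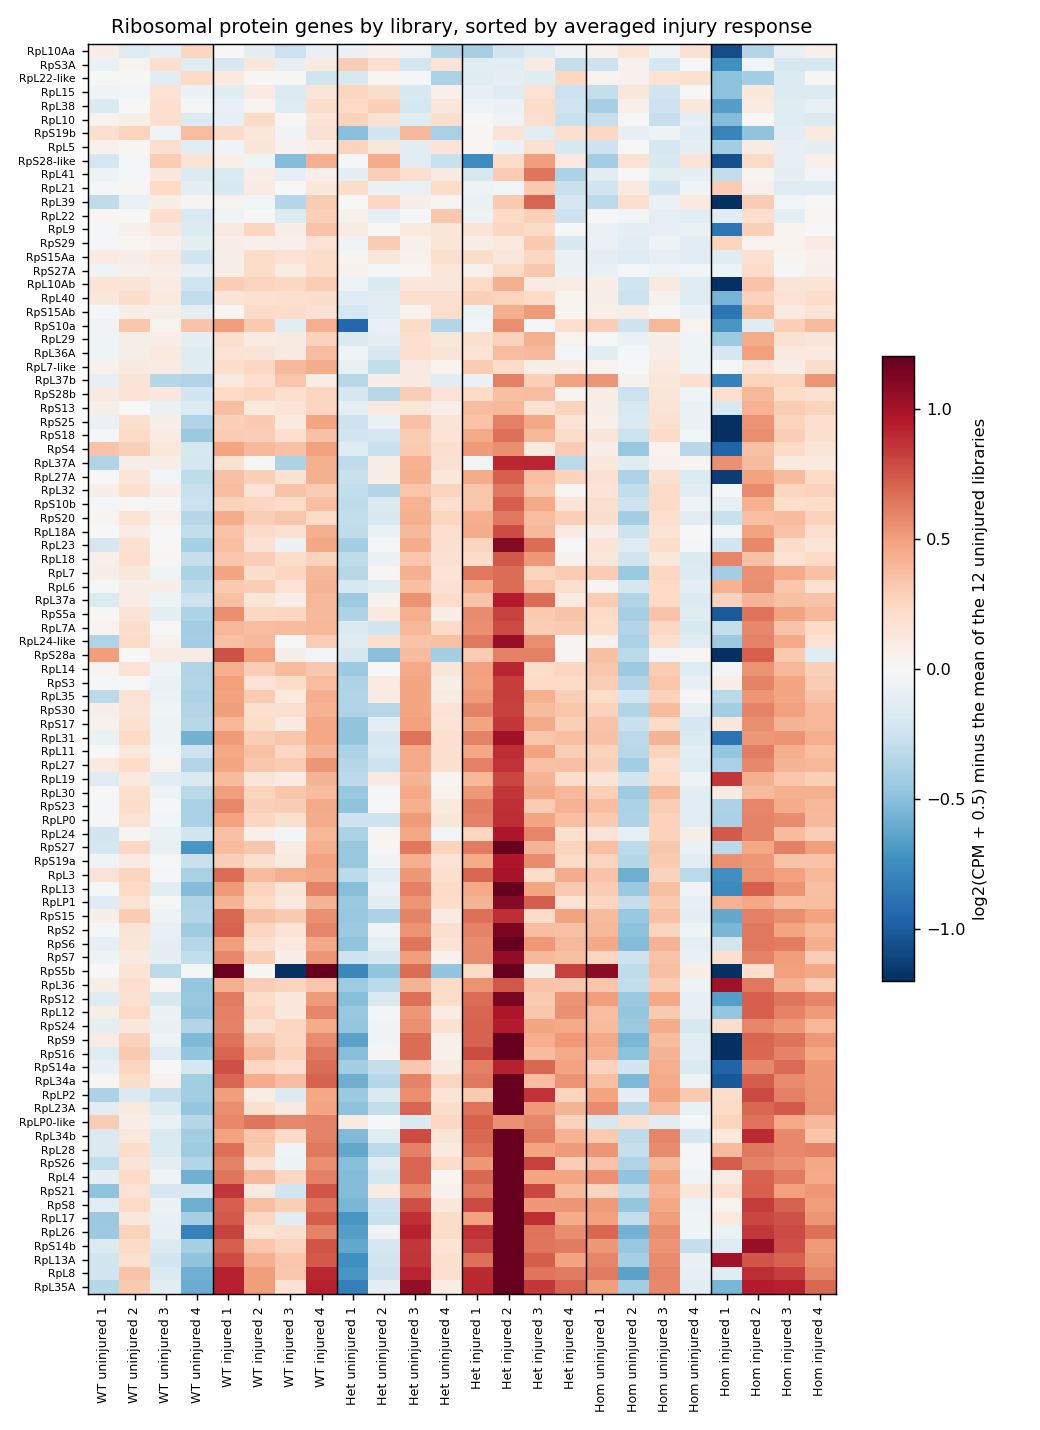
Level of ribosomal protein genes (rows, sorted by averaged injury response) in each library (columns), as log2(CPM + 0.5) minus the mean of the 12 uninjured libraries. Columns of the 4 libraries of a group differ in shade over most rows at once, injured heterozygous library 2 is high over most rows, and homozygous injured library 1 is lower than the other 3 of its group over most rows, by unequal amounts, while RpL36 and RpL13A stay high.

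The ribosomal protein genes moved together from library to library, also within a group. After the group means were taken away, 1 component held 72% of the variance of the 92 genes, with 89 of them on the same side, while the first component of all tested genes held 28%. In uninjured wild-type library 4 only 7 of 92 genes lay above their group mean, and the same was true of injured heterozygous library 4. In injured homozygous library 2 there were 87. Over all tested genes, 47.7% to 53.3% lay above the group mean in each of the 24 libraries. The SD of log2 CPM within groups ran from 0.10 to 0.90 over the 92 genes with a median of 0.31, beside 0.26 for all genes. The component shares and these SDs include homozygous injured library 1 and were not computed without it. What sets these shared shifts was not tested. Genes this tied to each other are not independent counts of the injury response.

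In homozygous injured library 1 most of the genes were lower, by very unequal amounts. Against the mean of the other 3 libraries of the group 79 of the 92 lay lower and 13 higher, with a median of -0.61 on the log2 scale, and they ran from -2.70 for RpS5b to 0.56 for RpL36. RpL10Ab had 119 CPM there against 597, 522 and 528 CPM in libraries 2 to 4, RpS16 had 57.2 CPM against 262, 244 and 224 CPM, and RpS9 had 64.2 CPM against 266, 257 and 235 CPM. Among the 13 that were higher, RpL36 had 646 CPM in that library against 497, 430 and 393 CPM, and RpL19 had 466 CPM against 348, 325 and 314 CPM. The SD of the 92 differences in this library was 0.66 on the log2 scale, against 0.13 to 0.40 in the other 23.

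The genes were then ordered by level. Levels were compared per length, as CPM divided by the mean length of the annotated transcripts and scaled to the same sum in each library. On this scale the 92 genes ran from 5.82 for RpS28a to 3123 for RpL41, with a median of 411. After RpL41 the highest were RpS3A at 1728, RpS27A at 1497, RpL39 at 1392 and RpL21 at 1380, and above RpS28a the lowest were RpS5b at 11.2, RpS10a at 26.6, RpLP0-like at 27.6 and RpL37b at 31.7. Of the 31 genes with the highest level, 12 were called higher after injury with a median log2 fold change of 0.24. Of the middle 30, 22 were called (median 0.38), and of the lowest 31, 21 (median 0.50). Without homozygous injured library 1 the counts were 21, 27 and 24, and the medians 0.24, 0.42 and 0.55. This split was chosen with the values known and has no test.

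Among the most abundant of them few were called. Of the 10 genes with the highest level, 1 was called, RpL36 with 0.45 ± 0.11 (adjusted p = 0.00558), and the median log2 fold change of the 10 was 0.02. When homozygous injured library 1 was left out there were 2, RpL36 and RpL40, with a median of 0.05. RpL41, the smallest ribosomal protein, had a median of 676 CPM (624 to 851) in uninjured and 667 CPM (537 to 1092) in injured libraries, with a log2 fold change of 0.01 ± 0.09. RpS3A, on chromosome 4 at 65225-67207 (dm6, minus strand), had 1311 CPM (1099 to 1596) and 1193 CPM (783 to 1434), with -0.13 ± 0.08. Both missed the threshold, with adjusted p = 0.975 for RpL41 and 0.291 for RpS3A. RpS3A was 1 of 3 genes with a negative log2 fold change in all 3 genotypes, with RpL10Aa and RpL15, while 73 of 92 were positive in all 3.

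**Figure D4:**
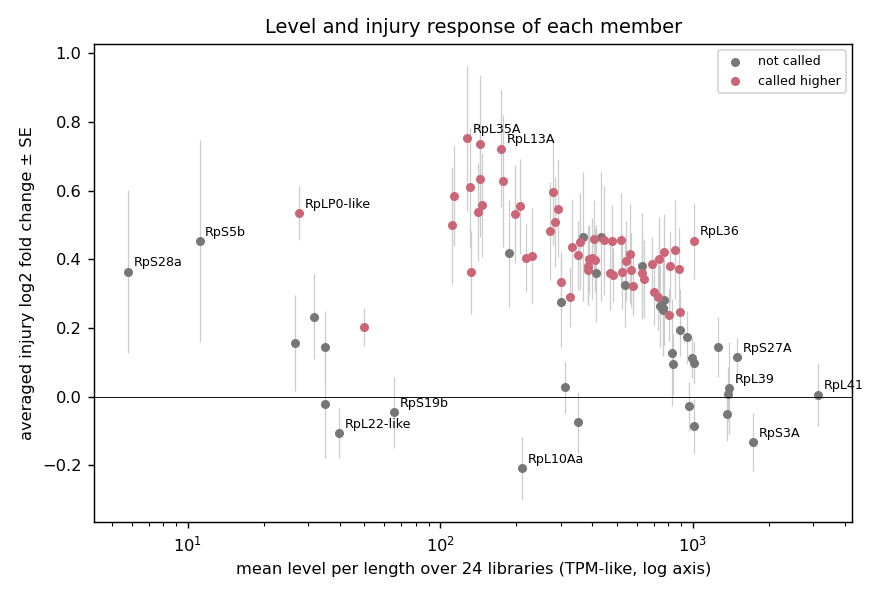
Averaged injury response (log2 fold change ± SE) of each gene against its level per length, on a log axis, as the mean over 24 libraries. The called genes (red) lie mainly between levels of 100 and 1000, and RpL41, RpS3A, RpS27A and RpL39 at the highest levels lie close to 0.

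For 14 genes of the family a related gene of higher level is also a member, from RpS28a at 0.711% of the summed level of its pair to RpL34a at 44.1%. Of these 14 second copies, the 3 assembly factor relatives were all called. Of the other 11, RpS14b and RpL34a (0.50 ± 0.17, adjusted p = 0.0438) were called and RpS5b, RpS10a, RpS15Ab, RpS19b, RpS28a, RpS28-like, RpL10Aa, RpL22-like and RpL37b were not, and the median log2 fold change of the 11 was 0.16. For RpL34a the edgeR adjusted p reached 0.0908 when single libraries were left out. Of the remaining 78 genes 50 were called, with a median of 0.38. Leaving out homozygous injured library 1 gave 4 of 11 and 65 of 78, and leaving out wild-type injured library 4 gave 1 of 11, 42 of 78 and 2 of the 3 assembly factor relatives. Reads of similar copies can be split wrongly, so the values of close pairs are uncertain. This holds most for RpS14a and RpS14b, neighbours on the X chromosome that encode the same protein, which rose by 0.48 ± 0.14 and 0.63 ± 0.17 (adjusted p = 0.0217 and 0.0106).

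RpL22-like, a copy of RpL22 known for its expression in the testis, had 36.4, 36.6, 39.9 and 40.1 CPM in uninjured homozygotes and 25.0, 26.5, 31.4 and 35.8 CPM in injured ones. These groups did not overlap, and it was the 1 member of 92 (1.09%) whose injured homozygous libraries all lay lower, beside 4.22% of all genes. Its log2 fold change of -0.36 ± 0.13 did not pass (adjusted p = 0.0959), and without injured library 1 it was -0.29 ± 0.13 (0.244). In wild type it was -0.06 ± 0.13 and in heterozygotes 0.10 ± 0.13. RpL10Aa had -0.39 ± 0.16 in homozygotes (0.158), where injured library 1 held 58.6 CPM against 96.4, 116 and 129 CPM in the others. Of 23 testis and germ line genes 0 were called by edgeR or DESeq2 in wild type, heterozygotes or homozygotes, and 1, 5 and 5 had an unadjusted p under 0.05 in edgeR. Their median log2 fold change was -0.19 in homozygotes, with 3 of 23 above 0, and -0.12 without injured library 1, with 6 above 0. It was -0.04 in wild type and 0.07 in heterozygotes. Their summed level ran from 5058 to 6461 CPM in uninjured and from 4416 to 5966 CPM in injured homozygotes, and none of the 23 was at 0 in any library. The part of these genes in the values of the second copies was not tested.

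RpS5b, which is known for its expression in the ovary, was the most variable, at 1.09 to 16.2 CPM over the injured libraries. The highest value was in wild-type injured library 4, the library with 464 CPM of ovary and yolk genes, and the lowest in homozygous injured library 1. What ovary RNA adds to RpS5b was not tested. As a share of its pair with RpS5a it made up 2.54% of the level per length. RpS19b, a germ line copy, was 16.2% of its pair with RpS19a, with 21.0% ± 3.35 (SD, n = 4) in uninjured and 16.7% ± 1.04 in injured wild type. In heterozygotes its share was 16.1% ± 2.19 and 13.7% ± 2.88, and in homozygotes 17.8% ± 2.54 and 11.8% ± 3.61. The lower share went with a higher RpS19a, which rose by 0.41 ± 0.10 (adjusted p = 0.00583), while RpS19b had -0.05 ± 0.10 (0.796).

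**Figure D5:**
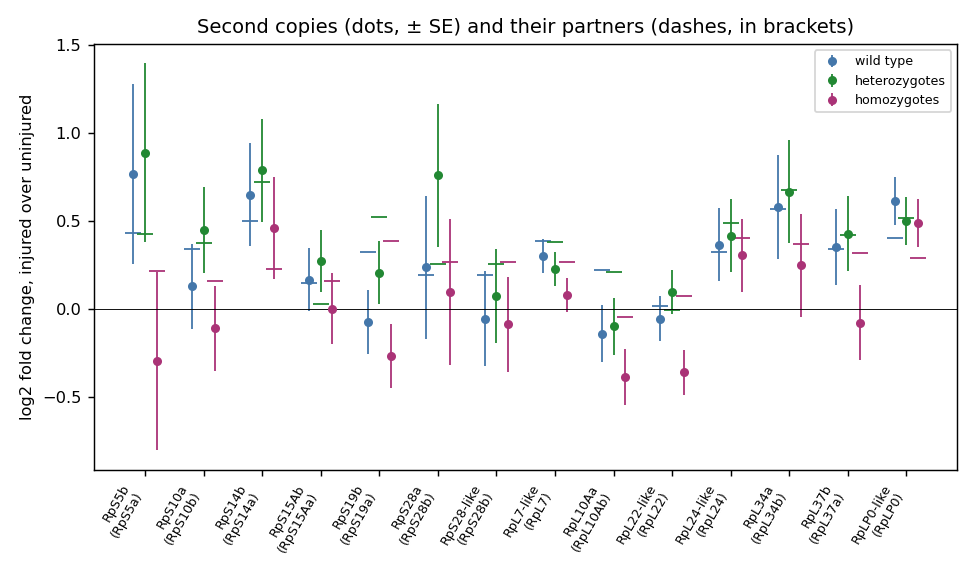
Injury response (log2 fold change, dots ± SE) of 14 second copies in the 3 genotypes, with the response of the partner gene as a dash. RpLP0-like is above 0 in each genotype. Every second copy has its lowest value in homozygotes, where homozygous injured library 1 is included. Without that library the homozygous values were -0.29 for RpL22-like, -0.20 for RpL10Aa and -0.13 for RpS19b.

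The Rel genotype left the cytosolic ribosomal protein genes without a called difference. With edgeR's quasi-likelihood test 0 of 92 were called in heterozygotes or homozygotes against wild type, in either injury state, beside 0.498% (heterozygotes) and 3.96% (homozygotes) of all genes in uninjured flies and 0.296% and 4.28% in injured flies. At an unadjusted p under 0.05 there were 0, 1, 1 and 3 genes in the same order, beside 9.54%, 13.1%, 5.91% and 16.7% of all genes, and DESeq2 called 0 in each. Member medians were 0.11 and 0.08 in uninjured and 0.16 and -0.05 in injured flies. The last became 0.08 without homozygous injured library 1. RpLP2 was the member with the largest difference in uninjured homozygotes, at 0.62 ± 0.23 (adjusted p = 0.181). It had 135, 89.9, 135 and 121 CPM there and 74.5, 86.0, 79.8 and 72.7 CPM in wild type, so the groups did not overlap (1.09% of members, beside 4.97% of all genes). In the authors' deposited table for this comparison it was the 1 member listed past their threshold, with a log2 fold change of 0.62 and an adjusted p of 0.00146, beside 6.42% of the genes in that table.

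The injury response itself was compared between genotypes as a difference of differences. Here 0 of 92 members and 0% of all genes were called by edgeR for either mutant genotype against wild type, 0 members had an unadjusted p under 0.05, and DESeq2 called 0 members. The median difference was 0.07 for heterozygotes and -0.14 for homozygotes, where 77 of 92 genes had a smaller response than in wild type. Without homozygous injured library 1 the homozygous median was -0.002 and 45 of 92 were above 0. The SE of a member's difference had a median of 0.28 on the log2 scale, so a difference of the size of the median response was not detectable with 4 libraries a group.

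Genes that build and control ribosomes were read beside their products, with 11.6% of all genes called higher and 6.71% lower after injury. Of 31 tested ribosome biogenesis genes 19 rose and 0 fell, with a median of 0.34. The box C/D protein nop5 rose by 0.88 ± 0.08 (adjusted p = 2.04e-08), the pseudouridine synthase Nop60B by 0.86 ± 0.08 (4.78e-08), the box C/D protein Nop56 by 0.63 ± 0.07 (1.21e-06) and the nucleolar chaperone Nopp140 by 0.54 ± 0.07 (6.17e-06). Within single genotypes 9, 5 and 6 of 31 passed in wild type, heterozygotes and homozygotes, all higher. The small subunit proteins Rack1 and sta, whose symbols fall outside the rule, rose by 0.54 ± 0.13 (0.00544) and 0.51 ± 0.15 (0.0202).

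The rest of the translation apparatus had medians closer to 0. Of 27 initiation factors 7 rose and 0 fell (median 0.09), led by eIF6, a factor that keeps free large subunits apart, with 0.44 ± 0.08 (adjusted p = 0.000409). Of 11 elongation and release factors 4 rose and 0 fell (median 0.07), among them eEF1alpha1 with 0.24 ± 0.08 (0.0349). Of 73 mitochondrial ribosomal proteins 3 rose and 2 fell (median 0.02). Of 8 tested genes of RNA polymerases I and III, RpI135 rose and the repressor Maf1 fell.

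Among 20 genes of growth and TOR signalling 8 rose and 0 fell. Their summed level ran from 1833 to 2887 CPM in injured homozygotes and reached at most 2112 CPM in the other groups. The lower end lay within the ranges of injured wild type (1649 to 2112 CPM) and injured heterozygotes (1693 to 2013 CPM). The range without homozygous injured library 1 is not given here. Thor, the 4E-BP repressor of initiation, rose by 1.17 ± 0.10 (adjusted p = 1.36e-08) and Myc, which drives ribosome biogenesis genes in flies, by 0.98 ± 0.15 (4.95e-05). Of 12 genes of ribosomal and related stress 3 rose: Gadd45 by 1.26 ± 0.12 (2.70e-08), Xrp1, which mediates the response to Minute mutations, by 0.62 ± 0.10 (9.91e-05), and p53 by 0.40 ± 0.09 (0.00406). Within injured homozygotes Myc ran from 56.7 to 151 CPM (82.3 ± 45.8, SD, n = 4) and Xrp1 from 500 to 941 CPM (627 ± 211). Injured wild type had 61.3 ± 17.0 CPM of Myc and 435 ± 80.6 CPM of Xrp1. Injured heterozygotes had 59.8 ± 12.0 and 537 ± 84.2 CPM. These values of Myc and Xrp1 include homozygous injured library 1. M1BP, Dref and Trf2, which act at ribosomal protein promoters, had log2 fold changes of 0.07 ± 0.10, -0.01 ± 0.08 and 0.03 ± 0.10 and did not pass (adjusted p = 0.656, 0.963 and 0.872). Without homozygous injured library 1 the counts were 20 of 31 for biogenesis, 11 higher and 1 lower of 27 for initiation, and 8 higher and 2 lower of 73 for mitochondrial ribosomal proteins.

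Ribosomal protein transcripts are short, so other short transcripts were set beside them. Of 523 other genes with transcripts under 1000 bp and a mean log2 CPM of at least 6, 47 rose and 67 fell, with a median of -0.06. Of the 92 genes, 60 share no exon with another gene and 36 of these were called, beside 16 of 25 that overlap a gene on the other strand. By chromosome, called genes were 9 of 19 on 2L, 10 of 21 on 2R, 9 of 14 on 3L, 16 of 23 on 3R, 11 of 14 on X and 0 of 1 on 4. For transcript usage, 23 of the 92 genes had only 1 transcript counted, so that its share could not move. Of the 92 genes, 5 had a main transcript whose median share moved by over 5 points between states, and 0 had ranges that did not overlap. The same was not counted over all genes.

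Markers of the tissues in a whole fly were counted in the same averaged comparison. Of 19 muscle genes 3 rose and 0 fell (median 0.13), of 11 tested fat body genes 1 rose and 2 fell (median 0.08), and of 19 digestive genes 2 rose and 1 fell (median 0.29). Of 15 accessory gland genes 0 rose and 1 fell (median -0.17), of 23 testis and germ line genes 0 rose and 2 fell (median -0.03), and of 9 tested ovary genes 1 rose and 0 fell (median 0.14). The 15 neuron genes had a median of -0.01. Their summed level ran from 1635 to 4331 CPM in injured homozygotes and reached at most 2775 CPM in the other groups. It ran from 1642 to 2116 CPM in injured wild type and from 1507 to 1983 CPM in injured heterozygotes. The neuron range without homozygous injured library 1 is not given here. The part of tissue makeup in the ribosomal protein values was not tested.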

How the data were processed

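The authors deposited RSEM expected counts per gene and per transcript, and tables of their own comparisons with log2 fold changes and adjusted p-values. The submitters' processing notes name edgeR 3.10.5, RSEM 1.2.22, STAR 2.4.2a and CASAVA, and genome build dm6; the annotation and the use of strand are not given in the sources used here. The deposited counts held 0 values that were not whole. Per the labels' protocols, 1 µg of total RNA per library went into an Illumina TruSeq kit. Library totals of 6543632 to 14660491 counts set the precision.

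Counts were tested with the two-sided quasi-likelihood F-test of edgeR 4.0.16 (R 4.3.3), with TMM factors, the filterByExpr filter and 1 mean per group over 24 libraries (18 residual degrees of freedom). The 10 comparisons were injury in each genotype and averaged over genotypes, each mutant genotype against wild type in each state, and 2 differences of injury responses. P-values were adjusted over all 13868 genes by Benjamini and Hochberg and called under 0.05. SE values were obtained by dividing each absolute log2 fold change by its root F statistic. CPM values use TMM-scaled library sizes. Lengths and coordinates are from Ensembl release 115, counted from 1. The fit was tested on simulated data.

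Named genes were Rel, called members (the 10 of smallest adjusted p where over 20 were called), the 3 highest and 3 lowest members of a comparison, members of known role, both copies of gene pairs, the 5 highest and 5 lowest by level, and up to 4 called genes per other list. Genes outside this rule were chosen after their values were seen, as were the level split, the group of second copies and the 2 libraries left out together. The members and lists were chosen with earlier results of these data known. Alternatives were other size factors, no count filter, only the compared groups, DESeq2 1.42.0, a replicate block and leaving out each library. No 2 libraries agreed within sampling noise. A member that the naming rule selects is counted in all totals but is not reported here by itself.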

Additional observations from a re-analysis of the deposited data

Results flagged for a closer look

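In 3 of 54 sets of 4 libraries examined for single members and for their summed share, 1 library lay far from the other 3. Chance alone gives about 1 in 20. RpL35A had 154.3 CPM in injured heterozygous library 2, and the nearest library of its group had 72.45 CPM. RpL22-like had 42.09 CPM in injured heterozygous library 4, and the nearest had 32.49 CPM. RpL41 had 698.7 CPM in uninjured homozygous library 2, and the nearest had 641.5 CPM, in a group whose other libraries were nearly equal.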

How the results depend on the processing

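The averaged count of 55 called members was 55 with DESeq2 size factors, 55 with TMM factors computed without the members, 54 without the count filter and 57 with DESeq2, and the 55 genes kept their calls in 55, 55, 54 and 55 cases. Leaving out each library gave 36 (without uninjured wild-type library 4) to 72. Tests within 1 genotype depended on the setting. With only the compared groups fitted, counts were 6 in wild type, 0 in heterozygotes and 0 in homozygotes, and 1 in uninjured homozygotes against wild type. DESeq2 gave 9 in heterozygotes and 2 in homozygotes. Leaving out each library gave 0 to 1, 0 to 35 and 0 to 7 in the 3 genotypes. The shares of all genes called in these settings are not given here. Homozygous injured library 1 and wild-type injured library 4 were also left out together, an alternative chosen after seeing the data. The heterozygous count was then 2, beside 6.44% of all genes. Log2 fold changes of some uncalled genes changed sign when libraries were left out: RpL22-like in wild type ran from -0.108 to 0.014 (0.015 without both), RpS5b in homozygotes (-0.30 with all libraries) from -0.479 to 0.041 (0.014), and averaged RpL5 from -0.051 to 0.001, RpL22 from -0.002 to 0.061, RpS19b from -0.098 to 0.036 and RpS28-like from -0.084 to 0.047. RpL35A in uninjured heterozygotes against wild type (0.37) ran from -0.079 to 0.609, and RpS5b in injured homozygotes against wild type (-0.61) was 0.146 without both.

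Replicate numbers did not pair the libraries: of 28 same-numbered pairs 7 had a correlation of deviations over 0.1, with a range of -0.435 to 0.291. With the replicate block the averaged count was 49 and each genotype's count was 1. The cause of these changes was not tested.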
